A study of Mus musculus with 10 samples.

Results

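The oncofetal growth genes described here are *Lin28a*, *Lin28b*, *Hmga2*, *Igf2*, *Meg3* and *Igfbp2*, 6 of the 17813 genes measured on microarrays of distal tip cells from embryonic mouse lungs. They were chosen by name, as genes of the Lin28 pathway and of fetal growth, and each was measured by 1 probe set that names no other gene. All 6 were found in the table and all 6 passed into the test, since no filter on dim signals was applied.

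Distal tip cells are the progenitors at the ends of the branching airway epithelium, which give rise to bronchiolar cells early and to alveolar cells late in gestation. The study compared them at E11.5 and E17.5, with 5 arrays per stage, to look for signalling pathways that act on alveolar fate. Embryos of both stages carried the *Id2-CreER; Rosa26R-fGFP* alleles. The E11.5 tips were cut out by hand after a short dispase treatment, and the labels give tamoxifen for E17.5 only. The E17.5 cells came from embryos whose mothers had been given tamoxifen (150 µg per gram of body weight) at E16.5, and they were collected as GFP+ cells by flow cytometry after trypsin/EDTA dissociation. In these mice the *Id2* promoter drives the tamoxifen-inducible Cre, so the GFP label marked cells that expressed *Id2* at E16.5 together with their immediate progeny. Stage, tamoxifen, dissociation and the way of collection all changed together between the groups and cannot be told apart. The labels call the arrays biological replicates without saying whether they came from separate litters. The p-values therefore set the stage difference against the spread between these arrays, which may not be the spread between litters.

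The stages differed over most of the table. With limma and a Benjamini-Hochberg adjusted p under 0.05, 68.4% of all genes were called, 36.9% as higher and 31.5% as lower at E17.5, and the median log2 difference was 0.03. Among 18 epithelial markers 12 were called higher, 2 lower and 4 were not called. The epithelial genes *Epcam* and *Cdh1* had mean log2 signals of 11.43 and 12.72 at E11.5 and 13.34 and 13.36 at E17.5. *Cdh1* rose by 0.64, or by 0.26 after quantile normalization. For alveolar type 2 cells, 13 of 15 markers were called higher and 2 lower. Of 17 lung tip markers 6 were called higher, 8 lower and 3 not called. Among them *Id2*, whose promoter drives the label, rose by 2.10, *Nkx2-1* was not called (0.10, adjusted p = 0.72, limma) and *Sox9* was not called (-0.02, adjusted p = 0.92), although *Sox9* was called lower after quantile normalization (-0.60, adjusted p = 0.0037). Markers of other cells moved with stage. Of 22 macrophage and monocyte markers 19 were called higher and 1 lower at E17.5, with array means over the list of 5.55 to 6.34 on E11.5 arrays and 8.76 to 9.58 on E17.5 arrays. Of 20 endothelial markers 17 were called higher and 0 lower, with array means of 5.57 to 6.54 and 8.65 to 10.58. Of 31 mesenchymal markers 17 were called higher and 8 lower, with array means of 6.88 to 8.06 and 8.18 to 9.22. At E11.5 the leucocyte gene *Ptprc* lay at 4.00 to 4.70 and the endothelial gene *Pecam1* at 5.03 to 5.96, and at E17.5 they lay at 8.51 to 9.09 and 9.50 to 11.85. The table holds no detection calls, so no low signal can be called absence of RNA. Of 12 cartilage markers 3 were called higher and 7 lower, and *Col2a1* fell by 6.57 on the log2 scale. Of 11 erythroid markers 2 were called higher and 6 lower, and the embryonic globin *Hbb-y* fell by 7.84. Of 9 neural and Schwann cell markers 4 were called lower and 2 higher. One array stood apart: E11.5 replicate 1 was outlying within its stage for 789 genes by Dixon's test, against 82 to 175 for the other E11.5 arrays and 76 to 315 for the E17.5 arrays. It also had the highest mesenchymal, macrophage and endothelial means of its stage (8.06, 6.34 and 6.54). Its epithelial and lung tip means were the lowest of its stage (11.45 and 10.12). Member values are therefore given with and without this array. In RNA from bulk samples, fewer cells that express a gene and less RNA per cell cannot be told apart. The part that other cell types had in the differences below was not tested.

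As background, LIN28A and LIN28B are RNA-binding proteins of embryonic and stem cells. They bind precursors of the let-7 microRNAs and hinder their maturation, so that mature let-7 is low while they are present. LIN28A marks the bound precursors for tailing with uridines and for decay. Mature let-7 recognises its target mRNAs through the seed at its 5′ end, and *Hmga2*, *Mycn*, *Igf2bp1* and *Lin28b* itself are among the messages it represses. *Igf2* encodes the main fetal insulin-like growth factor and is expressed from the paternal allele, *Meg3* is a long non-coding RNA expressed from the maternal allele, and *Igfbp2* encodes a secreted protein that binds insulin-like growth factors.

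The let-7 sequences are shown because they connect *Lin28a* and *Lin28b* with the genes described further on. MicroRNAs were not measured on these arrays. The 9 mature sequences of the family in RefSeq (GRCm38.p6) share 1 seed, bases 2 to 8, in capitals.
mmu-let-7a-5p: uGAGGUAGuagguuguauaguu
mmu-let-7b-5p: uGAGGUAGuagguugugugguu
mmu-let-7c-5p: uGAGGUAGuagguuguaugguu
mmu-let-7d-5p: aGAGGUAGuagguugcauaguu
mmu-let-7e-5p: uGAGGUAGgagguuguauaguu
mmu-let-7f-5p: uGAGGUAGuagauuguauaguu
mmu-let-7g-5p: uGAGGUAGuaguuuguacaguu
mmu-let-7i-5p: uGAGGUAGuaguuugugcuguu
mmu-miR-98-5p: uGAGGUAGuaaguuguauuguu
LIN28 proteins contact a GGAG motif in the part of the hairpin between the arms. Of 12 let-7 and miR-98 hairpins in RefSeq, 9 hold these letters there and 3 do not. Hairpins of both kinds follow, with the motif in capitals where it is present and coordinates in GRCm38.p6.
Mirlet7g, chr9:106178840-106178927, plus strand: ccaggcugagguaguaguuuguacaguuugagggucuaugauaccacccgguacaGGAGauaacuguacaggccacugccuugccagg
Mirlet7a-1, chr13:48538179-48538272, minus strand: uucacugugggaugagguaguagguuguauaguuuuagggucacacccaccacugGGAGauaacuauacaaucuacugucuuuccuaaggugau
Mirlet7b, chr15:85707319-85707403, plus strand: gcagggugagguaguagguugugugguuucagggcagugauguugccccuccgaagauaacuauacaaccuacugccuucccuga
Mir98, chrX:151913214-151913321, plus strand: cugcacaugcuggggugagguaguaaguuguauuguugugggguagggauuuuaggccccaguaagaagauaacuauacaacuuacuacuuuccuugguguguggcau

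Between the stages, 2 of the 6 genes were called higher at E17.5 (*Meg3* and *Hmga2*), 3 were called lower (*Lin28a*, *Igf2* and *Igfbp2*), and *Lin28b* was not called. The arrays of the stages did not overlap for 5 of the 6 genes, while 58.6% of all genes showed no overlap. The members' share of called genes, 83.3%, stood beside the 68.4% over all genes, and with 6 genes it is no result about the group. The median log2 difference of the 6 was -0.83. *Lin28a* had the 61st largest fall and *Igf2* the 87th of all 17813 genes, and *Meg3* had the 240th largest rise.

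**Figure D1:**
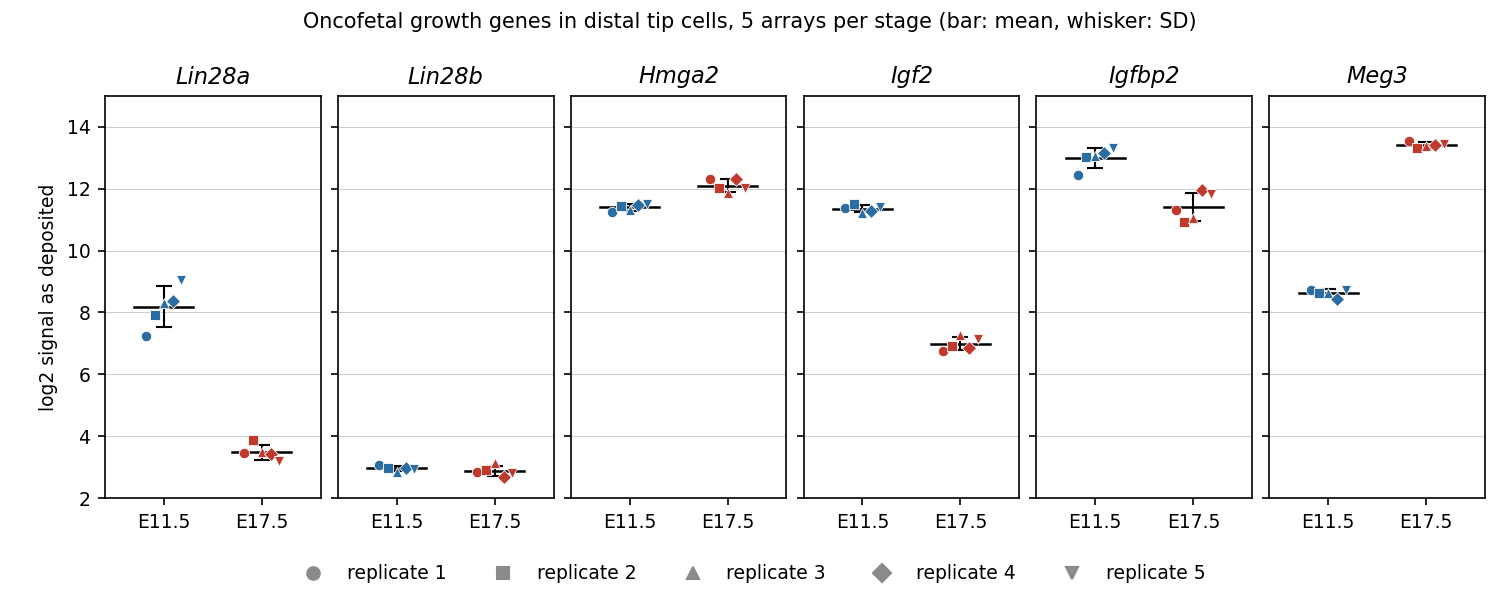
Log2 signal as deposited (y axis) of each gene on the 5 E11.5 arrays (blue) and the 5 E17.5 arrays (red), with the mean as a bar, the SD as a whisker and the replicate number as the symbol. *Lin28a* lay at 7.25 or above on every E11.5 array and at 3.87 or below on every E17.5 array, *Meg3* showed the opposite order, and *Lin28b* stayed between 2.69 and 3.15 throughout.

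**Figure D2:**
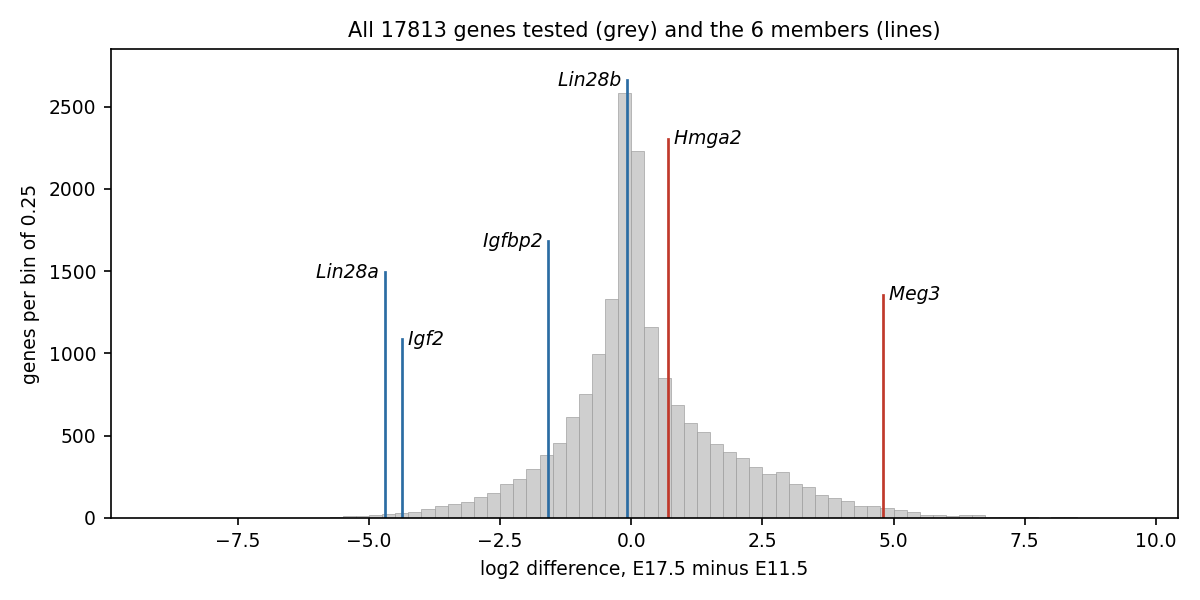
Histogram of the log2 difference, E17.5 minus E11.5, over all 17813 genes (grey, bins of 0.25, y axis in genes per bin), with a vertical line at the value of each of the 6 genes; the heights of the lines only keep the names apart. *Lin28a*, *Igf2* and *Meg3* lay in the tails, *Lin28b* in the centre, and the line of *Hmga2* at 0.70 moved to 0.21 after quantile normalization.

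*Lin28a*, the let-7 binding protein of early embryos, fell. Its log2 signal was 7.25, 7.93, 8.32, 8.39 and 9.05 on E11.5 replicates 1 to 5 and 3.45, 3.87, 3.48, 3.44 and 3.20 on E17.5 replicates 1 to 5. Every E11.5 array was above every E17.5 array, with 3.38 between the nearest arrays, although the E11.5 arrays spread widely and replicate 1 was the lowest of them. The means were 8.19 ± 0.66 and 3.49 ± 0.24 (SD, n = 5 each). The log2 difference was -4.70 with a standard error of 0.27 (limma, Benjamini-Hochberg adjusted p = 1.1e-08), a fold of 26.0, and without E11.5 replicate 1 it was -4.94. At E17.5 the signal lay in the dim end of the table, where 6.25% of genes were dimmer, so the size of the fold can depend on how the authors corrected the background, for which the sources used here give no method.

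*Lin28b*, its paralogue, gave no signal that could be compared. The probe set read 3.06, 2.98, 2.84, 2.98 and 2.93 at E11.5 and 2.85, 2.89, 3.15, 2.69 and 2.82 at E17.5. The arrays of the stages overlapped, and all lay near the lowest value in the table, 2.47, with 0.337% of genes dimmer at E11.5 and 0.264% at E17.5. The difference was -0.08 with a standard error of 0.10 (limma, adjusted p = 0.49), and -0.05 without E11.5 replicate 1. No level of *Lin28b* is read from this probe set at either stage, and a difference in the RNA was not detectable with it.

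The start of *Lin28a* is shown because its probe set moved from well within the range of the table to its dim end. The window of 250 bases before to 50 after the RefSeq start lies at chr4:134018767-134019066 on the minus strand (GRCm38.p6), and capitals mark the letters GGGCGG, the core of a GC box, which stand on the opposite strand 33 bases after the start.
Lin28a: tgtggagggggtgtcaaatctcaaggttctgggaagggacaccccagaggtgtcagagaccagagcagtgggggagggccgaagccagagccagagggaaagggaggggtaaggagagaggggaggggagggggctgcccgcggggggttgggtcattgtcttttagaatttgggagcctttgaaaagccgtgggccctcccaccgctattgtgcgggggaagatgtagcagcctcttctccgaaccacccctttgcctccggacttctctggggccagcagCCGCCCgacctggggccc
GGGCGG was searched on both strands and was held by 35.7% of 32851 promoter windows in the RefSeq table. It was in 5 of the 11 windows of the 6 genes, for *Lin28a*, *Hmga2*, *Igfbp2* and *Igf2*. Of these genes only *Hmga2* was called higher, and that call was lost after quantile normalization. Neither window of *Meg3* held it.

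Genes listed for let-7 biogenesis and turnover changed in both directions. The list is broad and includes *Mbnl1*, described below for another microRNA precursor. Of 19 measured genes other than *Lin28a* and *Lin28b*, 7 were called higher, 11 lower and 1 not, with a median log2 difference of -0.60 beside 0.03 over all genes. The list as a whole was 94.7% called, against 68.4% of all genes. *Msi1*, an RNA-binding protein reported to act with LIN28A on let-7 precursors in the nucleus, had the largest fall, from 9.12 ± 0.19 to 5.69 ± 0.18 (SD, n = 5 each), a log2 difference of -3.43 with a standard error of 0.12. *Trim71*, a stem cell ubiquitin ligase that let-7 itself represses, fell by 2.58 on the log2 scale with a standard error of 0.42. Its E11.5 replicate 1 read 9.42, far under the next array of its stage, and without that array the difference was -3.03. *Syncrip*, an RNA-binding protein, fell by 2.53.

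Of the nucleases that mature let-7, *Dicer1* was called and *Drosha* was not. *Dicer1*, which cuts the hairpin into the mature duplex, fell by 1.62 with a standard error of 0.11 (limma, adjusted p = 3.7e-08), from 12.10 ± 0.06 at E11.5 to 10.49 ± 0.22 at E17.5 (SD, n = 5 each). For *Drosha*, which releases the hairpin from the primary transcript, the log2 difference was 0.30 (limma, adjusted p = 0.13), but it was 0.43 without E17.5 replicate 3, where it was called (adjusted p = 0.013), and -0.29 after quantile normalization. *Trim25*, a cofactor of the uridine transferases, rose by 3.09 (standard error 0.10), and *Dis3l2*, the exonuclease that removes uridylated precursors, rose by 2.93 (standard error 0.11). *Tut7* and *Tut4*, the uridine transferases that LIN28A recruits, were named after their values were seen. They rose by 2.23 and 0.88, the latter by 0.34 after quantile normalization. *Tut1*, another terminal uridine transferase, also named after its value was seen, fell by 2.07. *Mbnl1*, a splicing factor known to compete with LIN28 for another microRNA precursor, rose by 2.37.

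**Figure D3:**
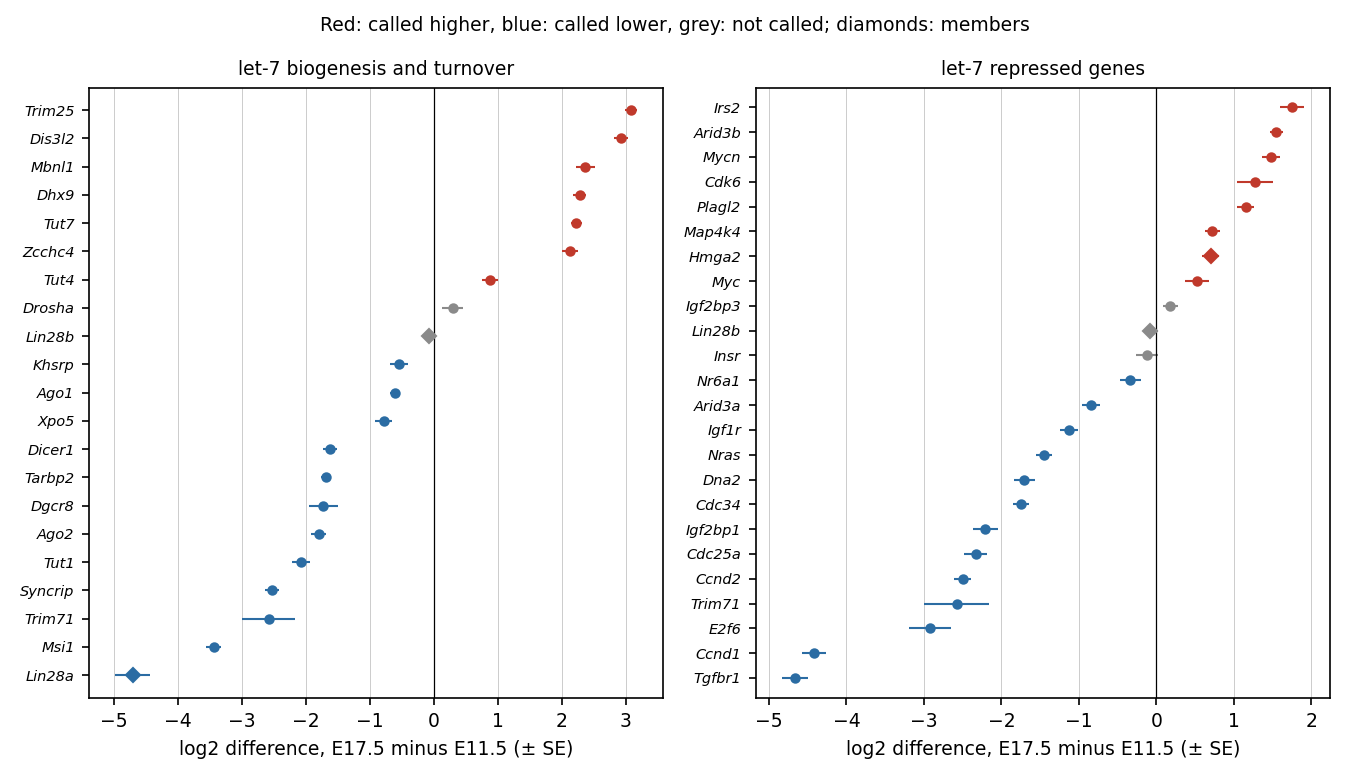
Log2 difference, E17.5 minus E11.5, with its standard error (x axis) for genes of let-7 biogenesis and turnover (left) and for genes repressed by let-7 (right). Red, blue and grey mark genes called higher, called lower and not called, and diamonds mark *Lin28a*, *Lin28b* and *Hmga2*. In both panels genes lay on each side of 0, *Hmga2* (0.70) was not called after quantile normalization, and *Igf2bp3* changed sign there.

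*Hmga2*, a chromatin protein of embryonic cells and a classical let-7 target, was modestly higher at E17.5 as the values were deposited. The 5 E11.5 arrays read 11.25, 11.45, 11.32, 11.46 and 11.52, and the 5 E17.5 arrays read 12.32, 12.02, 11.86, 12.32 and 12.01. The stages did not overlap, with 0.33 between the nearest arrays, and the signal was bright at both stages. The means were 11.40 ± 0.11 and 12.10 ± 0.21 (SD, n = 5 each). The log2 difference was 0.70 with a standard error of 0.11 (limma, adjusted p = 9.7e-05), a fold of 1.63, and it was 0.67 without E11.5 replicate 1. This call depended on the scaling of the arrays: after quantile normalization the difference was 0.21 (adjusted p = 0.096), and after centring each array on its median it was 0.57. The upper quartile of the arrays themselves was 9.42 to 9.46 on E11.5 arrays and 9.996 to 10.04 on E17.5 arrays, so the upper part of the signal range as a whole lay higher at E17.5.

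Other genes that let-7 represses did not share 1 direction. Of 22 measured genes 7 were called higher, 13 lower and 2 not called, a called share of 90.9% beside 68.4% over all genes, with a median log2 difference of -0.99. The largest falls were in *Tgfbr1*, a receptor for TGFβ, from 9.33 ± 0.38 to 4.67 ± 0.14, in *Ccnd1*, the G1 cyclin D1, from 11.99 ± 0.17 to 7.57 ± 0.33, and in *E2f6*, a cell cycle transcription factor, from 9.58 ± 0.26 to 6.66 ± 0.66 (SD, n = 5 each). Their log2 differences were -4.67, -4.41 and -2.92. The largest rises were smaller. *Irs2*, an adaptor of insulin and IGF receptors, rose by 1.75, *Arid3b*, a DNA-binding protein, by 1.55 and *Mycn*, a growth regulator of the distal lung epithelium, by 1.48 (0.89 after quantile normalization).

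The IGF2 mRNA-binding proteins, which are themselves oncofetal and let-7 targets, differed from each other. *Igf2bp1* read 9.72 to 10.16 on E11.5 arrays and 7.40 to 8.29 on E17.5 arrays, a log2 difference of -2.21 with a standard error of 0.16 (limma, adjusted p = 1.1e-07). *Igf2bp3* read 10.64 to 11.08 and 10.94 to 11.16, and its difference of 0.18 was not called (adjusted p = 0.11). After quantile normalization the value for *Igf2bp3* was -0.40 and was called. *Igf2bp2* and *Hmga1* were not analysed here.

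The remaining chromatin proteins of the high mobility group, to which *Hmga2* belongs, were fewer. Of 7 measured genes 1 was called higher and 3 lower, a called share of 57.1% beside 68.4% over all genes, with a median of -0.31. *Hmgb3*, a protein of progenitor cells, fell by 1.63 (standard error 0.11), *Hmgn3*, which binds nucleosomes, fell by 1.28, and *Hmg20b* fell by 0.33, or by 0.88 after quantile normalization. *Hmgn1*, another nucleosome-binding protein, rose by 1.11 (0.74 after quantile normalization) and was the only one called higher in the values as deposited, while *Hmgb2* was also called when array weights were used, when dim genes were left out, with a trend and robust moderation, and without E17.5 replicate 3. The probe set of the pseudogene *Hmga2-ps1*, named after its value was seen, was not called (0.42, adjusted p = 0.14).

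*Igf2*, the fetal growth factor, fell with little spread. On the E11.5 arrays it read 11.39, 11.52, 11.21, 11.29 and 11.40, and on the E17.5 arrays 6.77, 6.91, 7.28, 6.86 and 7.14. The stages were 3.93 apart at the nearest arrays, and E11.5 replicate 1 lay in the middle of its group. The means were 11.36 ± 0.12 and 6.99 ± 0.21 (SD, n = 5 each). The log2 difference was -4.37 with a standard error of 0.11 (limma, adjusted p = 8.8e-12), a fold of 20.7, and -4.36 without E11.5 replicate 1. At E11.5, 91.6% of genes were dimmer than *Igf2*, and at E17.5, 44.2%, so its E17.5 signal was in the middle of the table and not at its limit.

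Near *Igf2* in the RefSeq order lie *Igf2os* and *Ins2*, with 1 and 2 annotated genes between each of them and *Igf2*. *Igf2os*, the antisense transcript over *Igf2*, was named after its value was seen. It read 9.46 to 9.70 on E11.5 arrays and 6.31 to 7.71 on E17.5 arrays, and fell by 2.65 with a standard error of 0.22. Within each array the difference *Igf2* minus *Igf2os* changed by -1.72 between the stages (exact permutation test, two-sided, p = 0.0079, the smallest that 5 against 5 arrays allow, and 0.0095 adjusted over 6 neighbour pairs). *Ins2*, the insulin gene beyond *Igf2os*, was not called (0.46, adjusted p = 0.43). Its E17.5 replicate 3 read 8.72 and its next E17.5 array 6.15, and the within-array difference of *Igf2* from *Ins2* changed by -4.83 (exact permutation p = 0.0079). Without E11.5 replicate 1 these changes were -1.74 and -4.82. *H19*, the imprinted partner of *Igf2*, was not analysed here. The pairs of neighbours were chosen after the values had been seen, so their p-values add no support to the fall of *Igf2*.

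The receptors for IGF2 moved in opposite directions. *Igf1r*, the signalling receptor, read 7.76 to 8.15 on E11.5 arrays and 6.56 to 7.12 on E17.5 arrays and fell by 1.13 (standard error 0.11, limma, adjusted p = 2e-06). *Igf2r*, which takes up IGF2 for degradation in lysosomes, read 8.48 to 8.68 and 11.29 to 11.76 and rose by 2.85 (standard error 0.10, adjusted p = 1.1e-10). The insulin receptor gene *Insr* was not called (-0.12, adjusted p = 0.50).

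*Igf1*, the other ligand, read 8.32 to 10.12 on E11.5 arrays and 6.65 to 8.05 on E17.5 arrays. It fell by 1.90 with a standard error of 0.36 (limma, adjusted p = 0.00053), with 0.27 between the nearest arrays of the stages. Of the 12 measured ligands, receptors and substrates other than *Igf2*, 3 were called higher, 5 lower and 4 not, a called share of 66.7% beside 68.4% over all genes, and the median log2 difference was 0.01. The sign of that median depended on the setting, with -0.33 when dim genes were left out and -0.11 without E17.5 replicate 3. The adaptors that bind these receptors included the largest changes: *Grb10*, an imprinted inhibitor of growth, fell from 11.05 ± 0.34 to 7.53 ± 0.26, and *Grb14*, its relative, rose from 7.15 ± 0.06 to 11.40 ± 0.10 (SD, n = 5 each). *Irs1* fell by 0.54, or by 1.06 after quantile normalization, and *Shc1* fell by 1.11.

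*Igfbp2*, the IGF-binding protein, fell, with a wider spread between arrays than *Igf2*. It read 12.45, 13.04, 13.05, 13.15 and 13.31 at E11.5 and 11.32, 10.91, 11.06, 11.96 and 11.82 at E17.5. The stages did not overlap, but the lowest E11.5 array (replicate 1) and the highest E17.5 array (replicate 4) were only 0.48 apart. The means were 13.00 ± 0.33 and 11.41 ± 0.46 (SD, n = 5 each). The log2 difference was -1.58 with a standard error of 0.22 (limma, adjusted p = 4e-05), a fold of 3.00, and without E11.5 replicate 1 it was -1.72. Among the E17.5 arrays, replicates 4 and 5 had the highest *Igfbp2*, and their means over the macrophage and monocyte markers, 8.76 and 8.98, were the lowest of that stage, where the others had 9.56 to 9.58. Over the endothelial markers, replicates 4 and 5 had the lowest and the highest mean of that stage, 8.65 and 10.58. Over the mesenchymal markers they had 8.45 and 8.88, within the range of 8.18 to 9.22 at E17.5. The part of any of these markers in the spread of *Igfbp2* was not tested.

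*Igfbp5*, the neighbour of *Igfbp2* with 0 genes between them, fell to a similar extent, by 1.59 with a standard error of 0.25 (limma, adjusted p = 9.6e-05). The within-array difference *Igfbp2* minus *Igfbp5* was 0.26 ± 0.06 at E11.5 and 0.27 ± 0.59 at E17.5 (SD, n = 5 each), and its change of 0.00 was not called (exact permutation test, two-sided, p = 0.99). The E17.5 arrays spread so widely in this difference that the comparison says little.

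Of the 12 other IGF-binding proteins and genes of the proteases that free IGFs from them, 4 were called higher, 4 lower and 4 not called, a called share of 66.7% beside 68.4% over all genes. Their median log2 difference was 0.13, and 0.32 without E11.5 replicate 1. *Igfbp6*, a binding protein that prefers IGF2, showed the largest rise, from 4.35 to 5.49 on the E11.5 arrays to 11.18 to 11.51 on the E17.5 arrays, a log2 difference of 6.35 with a standard error of 0.19 (limma, adjusted p = 2.7e-11). It was the 57th largest rise of all genes. The E11.5 mean of *Igfbp6*, 4.97, lay below the E11.5 array medians of 7.01 to 7.14. The size of this rise can therefore depend on the background correction, for which no method is given. *Igfbp7*, a secreted relative with low affinity for IGFs, rose by 4.33, and *Htra1*, a secreted protease, by 2.49. *Igfals*, a partner of IGF complexes in serum, rose by 0.57 with 0.04 between the nearest arrays of the stages.

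In the other direction, *Igfbp4* fell by 2.30, *Stc1* fell by 2.29 and *Stc2* fell from 7.66 ± 0.32 to 6.17 ± 0.13 (SD, n = 5 each). *Stc1* read 2.98 to 3.20 at E17.5, in the same dim range as *Lin28b*, so the size of its fall cannot be read exactly. The proteins of the latter genes are stanniocalcins, which inhibit IGFBP proteases. *Igfbp3* (-0.36), *Igfbp1* (0.81), *Pappa* (0.31) and *Pappa2* (-0.04) were not called (adjusted p = 0.24, 0.061, 0.059 and 0.93). *Igfbp1* and *Pappa* were called under some settings: with array weights their differences were 1.03 and 0.37.

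**Figure D4:**
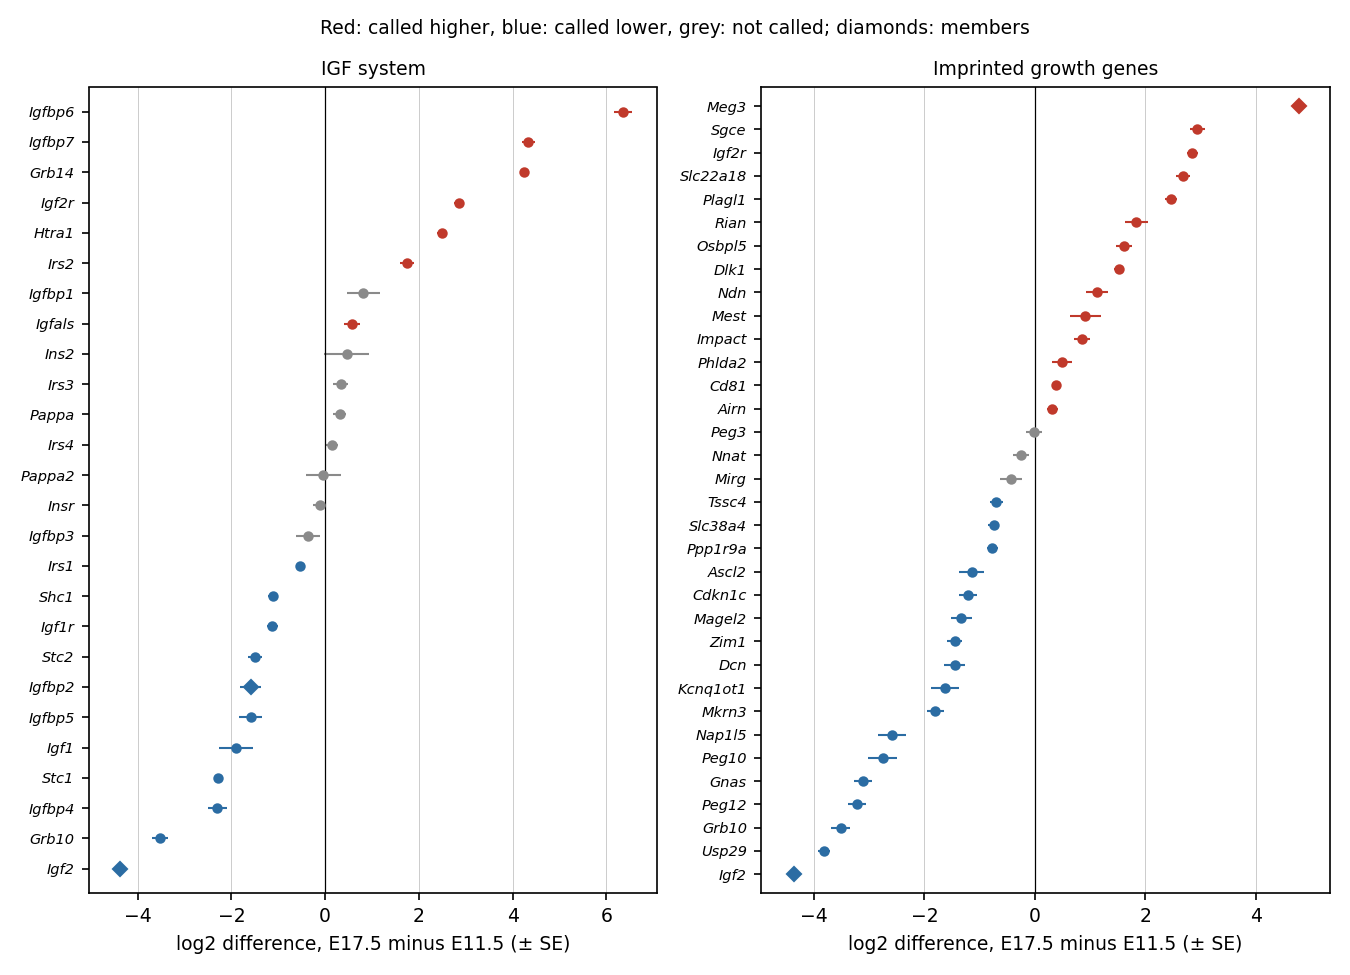
Log2 difference, E17.5 minus E11.5, with its standard error (x axis) for the IGF system (left) and for imprinted growth genes (right), in red, blue and grey for genes called higher, called lower and not called, with *Igf2*, *Igfbp2* and *Meg3* as diamonds. *Igf2* had the largest fall of both lists, *Igfbp6* (6.35) the largest rise on the left and *Meg3* (4.79) the largest rise on the right.

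*Meg3*, the maternally expressed long non-coding RNA, had the largest rise of the 6 genes and the smallest standard error. It read 8.73, 8.63, 8.62, 8.43 and 8.73 on the E11.5 arrays and 13.54, 13.31, 13.38, 13.40 and 13.45 on the E17.5 arrays. The nearest arrays of the stages were 4.59 apart, and no array stood off from its group. The means were 8.63 ± 0.12 and 13.42 ± 0.08 (SD, n = 5 each). The log2 difference was 4.79 with a standard error of 0.09 (limma, adjusted p = 6.9e-13), a fold of 27.7, and 4.81 without E11.5 replicate 1. At E17.5, 98.8% of genes were dimmer than *Meg3*. Its probe set, like that of *Igfbp2*, is of a type that can match several transcripts, so the value can be a sum over those it detects.

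The *Meg3* start is shown because this gene had the largest rise and because its RefSeq window held motifs that the windows of the other 5 genes lacked. It lies at chr12:109540746-109541045 on the plus strand (GRCm38.p6). Capitals mark TGACGTCA, the palindromic consensus of the cAMP response element, which starts 57 bases before the start of *Meg3*, and overlapping TATAAA letters on both strands that start 29 and 25 bases before it.
Meg3: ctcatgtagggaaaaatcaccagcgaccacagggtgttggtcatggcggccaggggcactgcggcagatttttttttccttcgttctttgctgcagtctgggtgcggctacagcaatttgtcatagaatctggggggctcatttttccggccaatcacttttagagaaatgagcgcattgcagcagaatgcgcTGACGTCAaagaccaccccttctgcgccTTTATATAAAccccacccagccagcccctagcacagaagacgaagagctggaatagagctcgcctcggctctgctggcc
Searched on both strands, TGACGTCA was held by 1.79% and TATAAA by 13.6% of the 32851 windows. Each was in 1 of the 11 windows of the 6 genes, and a second window of *Meg3* held neither. These matches describe the letters and not the binding of a factor.

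The other transcripts named here from the *Meg3* locus rose less or were not called. In the RefSeq order *Dlk1* precedes *Meg3*, and *Rian* and *Mirg* follow it, with 2, 19 and 74 annotated genes between each of them and *Meg3*. *Dlk1*, a paternally expressed inhibitor of differentiation, read 12.53 to 12.79 on E11.5 arrays and 14.16 to 14.32 on E17.5 arrays and rose by 1.52 (standard error 0.08, limma, adjusted p = 4.3e-09). A dimmer probe set of *Dlk1*, at 8.61 to 8.78 and 11.27 to 11.81, gave a rise of 2.87. The brighter probe set lay near the highest value of the table, 15.03, at E17.5, and whether that limited its rise was not tested. *Rian*, a maternally expressed host of small nucleolar RNAs that was named after its value was seen, read 9.66 to 10.42 and 11.23 to 12.44 and rose by 1.84 (standard error 0.21). *Mirg*, a maternally expressed microRNA host, read 7.69 to 8.18 and 7.19 to 8.25, and its difference of -0.44 was not called (adjusted p = 0.067). *Mirg* was called lower without E17.5 replicate 1, which read 8.25 beside 7.48 on the next array (-0.63, limma, adjusted p = 0.0011). It was also called lower with array weights (-0.48), with median centring (-0.57) and after quantile normalization (-0.70).

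The within-array differences of *Meg3* from its neighbours changed between the stages by more than the spread between arrays. *Meg3* minus *Dlk1* changed by 3.27, *Meg3* minus *Rian* by 2.95 and *Meg3* minus *Mirg* by 5.23 (exact permutation tests, two-sided, p = 0.0079 each, adjusted p = 0.0095 over 6 pairs). With the dimmer probe set of *Dlk1* the first of these changes was 1.92 (exact permutation p = 0.0079). Without E11.5 replicate 1 the changes were 3.28, 3.08 and 5.31, each at the smallest p that 4 against 5 arrays allow (exact permutation p = 0.016). These are changes of a difference between probe sets and say nothing about which RNA is more abundant. The pairs were chosen after the values had been seen, when *Meg3* was known to rise more than each neighbour. Their p-values therefore add no support to that rise.

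Imprinted growth genes in general changed in both directions. Of 32 measured genes other than *Igf2* and *Meg3*, 13 were called higher, 16 lower and 3 not called, with a median log2 difference of -0.57. The called share was 90.6%, beside 68.4% over all genes. *Usp29*, *Grb10* and *Peg12*, all expressed from 1 parental allele in at least some tissues, had the largest falls (-3.82, -3.52 and -3.22). *Sgce*, *Igf2r* and *Slc22a18* had the largest rises (2.94, 2.85 and 2.68). *Cdkn1c*, a maternally expressed inhibitor of the cell cycle, and *Plagl1*, a paternally expressed zinc finger factor, were named after their values were seen. The former fell by 1.22 and the latter rose by 2.46. *Peg3*, *Nnat* and *Mirg* were the genes not called, and *Nnat* and *Peg3* were called lower after quantile normalization (-0.61 and -0.40).

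Of 18 measured fetal antigens and stem cell factors outside the 6 genes, 5 were called higher, 8 lower and 5 not called, a called share of 72.2% beside 68.4% over all genes, with a median of -0.19. *Sall4*, a stem cell transcription factor, fell from 10.26 ± 0.52 to 5.09 ± 0.65 (SD, n = 5 each), the 29th largest fall of all genes, with a log2 difference of -5.17. Its E11.5 replicate 1 was low at 9.33, as for *Lin28a*. *Sox2*, which also marks the bronchiolar stalk of the lung, fell by 4.43 and *Prom1*, a membrane protein of stem cells, by 2.40. *Dlk1*, *Mycn*, *Nanog*, *Tpbg* and *Utf1* were the genes called higher, by 0.67 for *Tpbg*, 0.81 for *Utf1* and 0.97 for *Nanog*. After quantile normalization *Tpbg* was at 0.11 and no longer called (limma, adjusted p = 0.42). *Nanog* and *Utf1* were dim, with E11.5 means of 6.33 and 4.89, below the array medians of 7.01 to 7.14. *Afp*, the fetal serum antigen, was not called (-0.57, adjusted p = 0.66), and its E17.5 arrays ran from 3.45 to 9.38.

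The genes whose profiles over the 10 arrays lay closest to each of the 6 were found by the root mean square difference after centring each gene on its own mean. *Wnk3* (0.27), *Slc2a3* (0.32) and *Tgfbr1* (0.32) were nearest to *Lin28a*. *Coq3*, *Cir1* and *Krt7* were nearest to *Hmga2* (0.07 to 0.09), and *Suz12*, *Has2* and *Cherp* to *Igf2* (0.13 to 0.14). *Mnd1*, *Gmnn* and *Mgme1* lay nearest to *Igfbp2* (0.16 to 0.17) and *Chmp5*, *Emc7* and *Sumo3* to *Meg3* (0.09 to 0.12). For *Lin28b* they were *Gm5065*, *1700066C05Rik* and *Gm20319* (0.06 to 0.07), with differences between the stages of 0.02, -0.06 and -0.16. *Lin28a*, whose E11.5 arrays spread most, had the most distant nearest gene. All of these profiles share the same 10 arrays, so the distances are a description with no test.

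**Figure D5:**
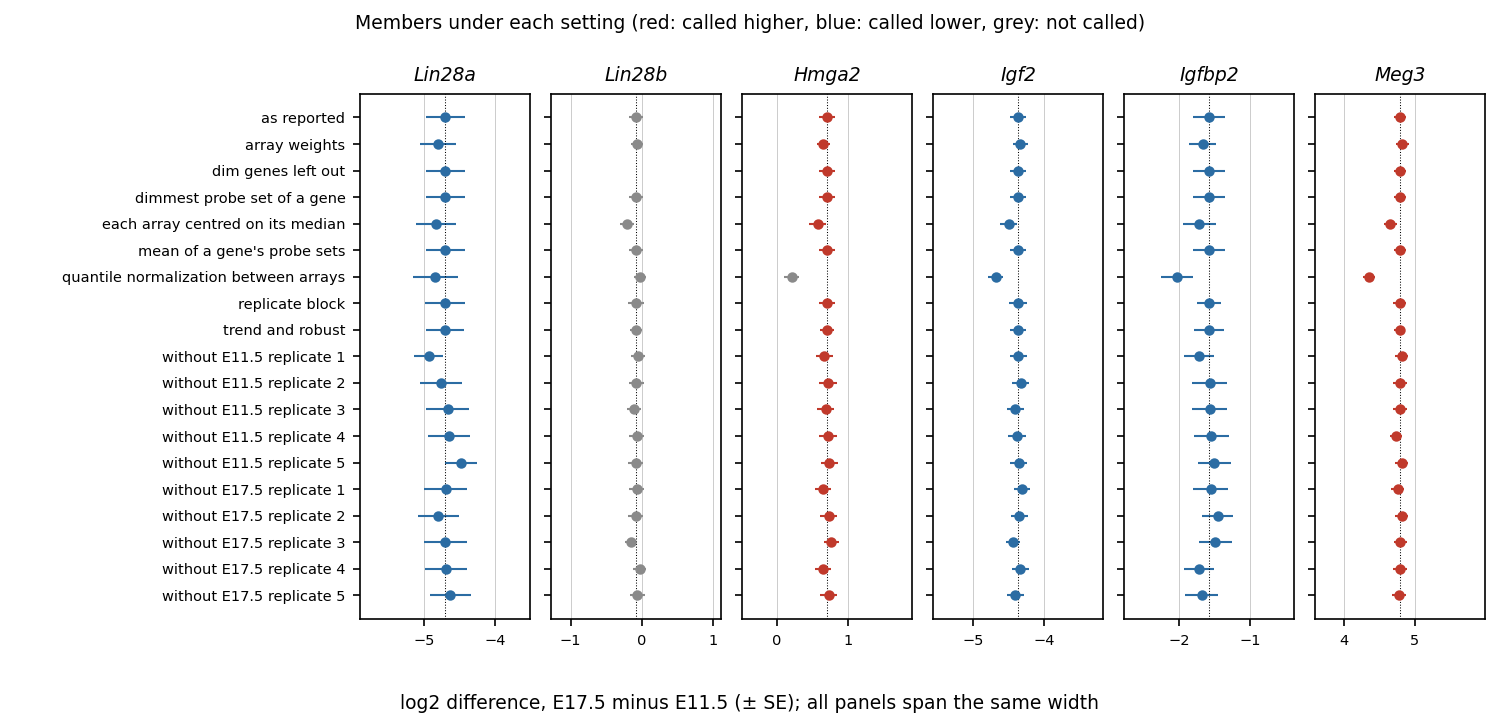
Log2 difference, E17.5 minus E11.5, with its standard error (x axis, each panel spanning the same width) of the 6 genes in the values as reported and under each alternative, with red, blue and grey for called higher, called lower and not called. *Hmga2* (0.21 after quantile normalization) was the only one of the 6 to lose its call, and *Lin28b* has no value where dim genes were left out.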

How the data were processed

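RNA of 10 samples (5 E11.5, 5 E17.5) was isolated with a Qiagen kit, amplified and biotin-labelled with NuGEN kits and hybridised to Affymetrix mouse arrays. The authors analysed the arrays with Bioconductor in R and deposited log2 signals of 21204 probe sets (2.47 to 15.03, 0 missing). The log2 scale was read from the values. Background correction, normalization and the choice of probe sets are given in no source used here. The number of arrays limits the precision.

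Probe sets were named from GEO's platform annotation: 17981 name 1 gene, 514 several and 2709 none, and only the first were used. Of these, 17832 had an Entrez identifier in RefSeq (GRCm38.p6), and 0 symbols changed. For 167 genes the brightest of several probe sets was taken. Stages were compared with limma 3.58.1 (lmFit and eBayes, R 4.3.3) in a fit of stage alone, adjusted over 17813 genes by Benjamini-Hochberg and called at 0.05. Folds are 2 to the power of the log2 difference. Neighbour pairs were compared by exact permutation (scipy 1.17.1, Python 3.11.15), and figures were drawn with matplotlib 3.10.9. The limma step was tested on simulated data with few changed genes and no difference in scaling between arrays. That test therefore says nothing about calls that depend on scaling. Sequences, gene order and motif windows came from RefSeq tables (GRCm38.p6).

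The members and gene lists were chosen with earlier results of these data known. In each list the 3 largest called rises and falls were named, with direct partners of the members, the genes not called where few, and the 3 genes most alike to each member. Genes chosen after their values were seen are so described. The main fit did not pair the arrays by replicate number. Alternatives were quantile normalization, median centring, leaving out dim genes (lower 25% of mean signal), other probe sets of a gene, array weights, trend and robust moderation, a replicate block and leaving out each array.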

Additional observations from a re-analysis of the deposited data

Results flagged for a closer look

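For 85 named genes, each stage was checked for an array that stood apart by Dixon's test at 0.71 for 5 arrays, and 13 of 170 groups had one, where chance gives about 1 in 20, or 8.5. None of the 6 oncofetal growth genes was among them. E11.5 replicate 1 was the array in 8 of the 13. It was low for *Trim71* (9.42), *Sall4* (9.33, next 10.42), *Igfbp5* (12.11, next 12.82), *Nkx2-1* (8.73, next 9.49), *Peg3* (7.97, next 8.29), *Hmgb2* (11.78, next 12.07) and *Insr* (6.68, next 6.88), and high for *Arid3b* (6.64, next 6.44). E11.5 replicate 4 was low for *Igfals* (5.16, next 5.85) and for *Dlk1* (12.53, next 12.75), and E11.5 replicate 3 was low for *Shc1* (9.09, next 9.24). At E17.5, replicate 3 was high for *Ins2* (8.72, next 6.15) and replicate 1 for *Mirg* (8.25, next 7.48). What set these arrays apart was not tested.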

How the results depend on the processing

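*Lin28a*, *Igf2*, *Igfbp2* and *Meg3* kept their direction and their call under every alternative run, with log2 differences of -4.94 to -4.49, -4.68 to -4.31, -2.03 to -1.46 and 4.35 to 4.82, and *Lin28b* was never called. The difference of *Hmga2* was 0.21 and not called after quantile normalization, which left 1 member called higher, and it ranged from 0.57 to 0.77 otherwise. The replicate block changed no call of a member (*Hmga2* 0.70, adjusted p = 0.001, limma), and gave 6385 genes called higher and 5349 lower. Same-numbered arrays had correlations of deviations of -0.294 to 0.074, and 0 arrays correlated best with their own number. These 5 pairs gave no sign of pairing by number but are too few to exclude it. The list medians moved with scaling, with the filter on dim genes and with single arrays. Median centring gave -0.10 over all genes, -0.74 for let-7 biogenesis, -0.12 for IGF ligands, receptors and substrates, -0.70 for imprinted genes and -0.45 for high mobility group genes (5 called lower). Quantile normalization gave -0.035 over all genes, -1.08 for let-7 biogenesis, -1.29 for let-7 repressed genes, -0.90 for imprinted genes (8 called higher), -0.88 for high mobility group genes and -0.40 for fetal antigens and stem cell genes, called 4 epithelial markers lower, and turned *Igf2bp3* to -0.40. Median centring and quantile normalization each called 1 endothelial marker lower. Without dim genes the medians were 0.12 over all genes, -0.33 for IGF ligands, receptors and substrates, 0.57 for IGF binding proteins and -0.34 for imprinted genes, with 2 high mobility group genes called higher, 0 macrophage and 1 neural marker called lower. The dimmest probe set of a gene, or the mean of its probe sets, also gave -0.34 for imprinted genes. Array weights, and trend with robust moderation, each called 2 high mobility group genes higher. Leaving out 1 array gave medians of -0.11 to 0.041 for IGF ligands, receptors and substrates, 0.0033 to 0.32 for IGF binding proteins and -0.65 to -0.50 for imprinted genes, 1 to 2 high mobility group genes called higher and 0 to 1 endothelial markers called lower. The causes were not tested. Without detection calls, dim signals such as those of *Lin28b* at both stages and *Lin28a* at E17.5 set no level of RNA.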
